A study of Gallus gallus with 6 samples.

Results

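Genes whose RNA was higher in every GYR ovary than in every YS ovary were examined in 6 ovarian transcriptomes. The members were chosen by their FPKM in these same ovaries. For each gene, the lowest of the 3 GYR values plus 0.5 was divided by the highest of the 3 YS values plus 0.5. The 100 genes with the highest mean FPKM were left out, which left 21064 of 21164 genes, and the 100 genes with the largest ratio were taken. Of these members, 24 had an FPKM under 0.5 in all 3 YS ovaries and are called near 0 in YS. The other 76 were measured above that level in at least 1 YS ovary and are called graded.

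GYR was a 3-line cross in which green-shell cocks with yellow feathers (GY) were mated to hens bred from Yaoshan (YS) cocks and recessive white feather layers (RW). The YS hens were of the Yaoshan breed, an indigenous chicken of Guizhou, so GYR hens carry YS ancestry through their dams. Both groups were hatched in the same batch and given the same diet, and ovaries were taken at 260 days of age. The 3 libraries per group are described in the paper as biological replicates, and each is counted here as 1 ovary. Hens were picked at random among those with average laying for their group. The paper sampled more hens than were sequenced, and it does not state how the sequenced ovaries were chosen. All visible follicles had been removed, so the tissue was what remained of the ovary without them.

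The ovary of a laying hen holds oocytes in follicles of graded size. Granulosa and theca cells surround each oocyte and produce steroid hormones, and connective tissue, vessels and blood cells lie between the follicles. RNA from the tissue left without the visible follicles is a mixture of the cell types that remained. Fewer cells of a type and less RNA per cell therefore cannot be told apart in any value given here. A cross brings together alleles from several lines, and a gene can differ between breeds through its own regulatory sequence or through factors encoded elsewhere.

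FPKM counts the fragments that map to a gene per length of its transcript and per mapped fragment of the library. The summed FPKM of the genes ran from 461965 to 506138 in GYR ovaries and from 465784 to 497838 in YS ovaries. Depth itself is not given by FPKM, but the steps between low values gave a depth relative to YS_1. It was 0.993 to 1.28 in GYR ovaries and 0.993 to 1.05 in YS ovaries, and GYR_2 was the deepest library. In the clean reads listed by the paper GYR_2 was highest as well. There YS_2 and GYR_3 lay above YS_1, whereas the steps gave 0.993 for both. The genes carry Ensembl identifiers that the files do not pair with names, and 0 of 21164 were matched by a RefSeq gene table. The function, position and cell type of the members were therefore not determined, the ovary was not checked against marker genes, and 2 members are given by identifier while the others are given by their rank in the ratio.

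ENSGALG00000011551 stood first by a wide margin. It had an FPKM of 1091 in GYR_1, 620.0 in GYR_2 and 816 in GYR_3, against 38.3 in YS_1, 43.3 in YS_2 and 44.6 in YS_3. All GYR ovaries were thus far above all YS ovaries, and the transcript was well measured in both breeds. The mean was 842 ± 237 in GYR and 42.0 ± 3.31 in YS (SD, n = 3 each), a 20.0-fold difference of the means. Its ratio of the lowest GYR to the highest YS value was 13.8, and the next member had a ratio of 3.44. A limma model was fitted to the 14918 genes whose FPKM averaged 0.5 or more over the 6 ovaries. In it, the log2 fold change of the gene was 4.26 on the log2(FPKM + 1) scale, with a standard error of 0.23. The gene had been picked from the same contrast, so these values describe it and do not test it.

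The leading member near 0 in YS was ENSGALG00000038550, which ranked 2nd of all members. Its FPKM was 5.17, 2.65 and 2.15 in GYR_1 to GYR_3, against 0, 0.27 and 0 in YS_1 to YS_3. The transcript was low in GYR and was listed at 0 in both YS_1 and YS_3. The mean was 3.32 ± 1.62 in GYR and 0.09 ± 0.16 in YS (SD, n = 3 each). Its log2 fold change was 1.93 on the log2(FPKM + 1) scale and 4.37 with a pseudocount of 0.1, so the size of the difference depended on the pseudocount. Its adjusted p-value from limma was 0.210, and 0.103 to 0.612 under the alternatives tried.

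**Figure D1:**
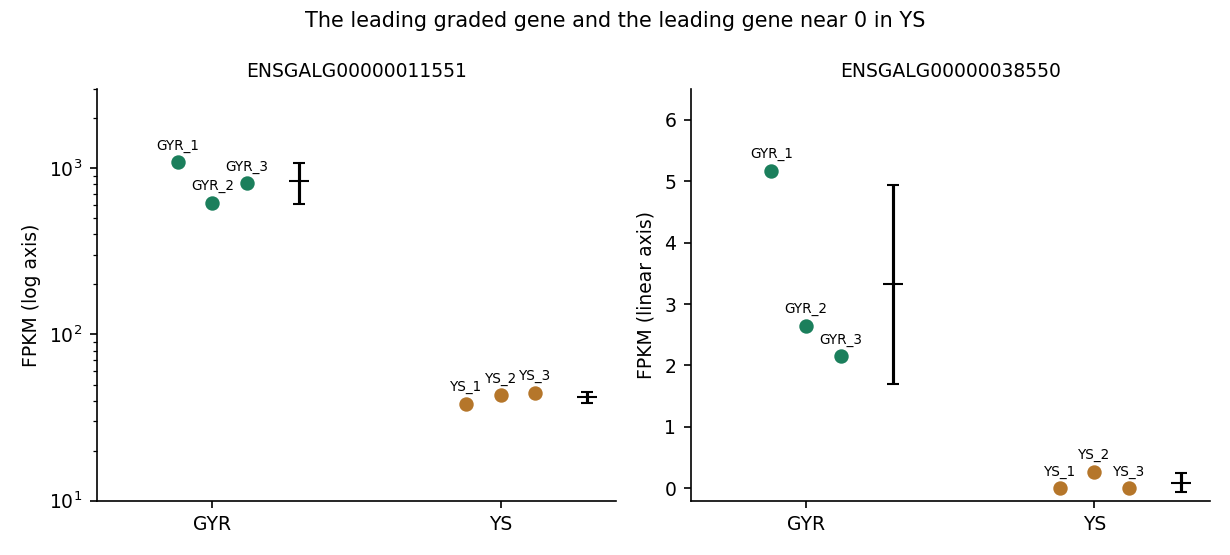
FPKM of ENSGALG00000011551 on a log axis and of ENSGALG00000038550 on a linear axis in the 3 GYR and the 3 YS ovaries. Each point is 1 ovary, and the bar beside each group is the mean with its SD. The GYR points lie above every YS point in both panels, at 620.0 or more against 44.6 or less for the first gene.

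Below ENSGALG00000011551 the ratios were small and fell slowly with rank. The median ratio of the 100 members was 1.52. It was at least 2 in 17 members, between 1.5 and 2 in 40, and under 1.5 in 43. The last 3 members inside the limit had ratios of 1.356, 1.355 and 1.355, and the first 3 genes outside had 1.354, 1.353 and 1.346. The member ranked 100th had an FPKM of 5.15, 3.97 and 7.16 in GYR_1 to GYR_3, against 1.60, 1.48 and 2.80 in YS_1 to YS_3. The gene ranked 101st had 1.03, 1.33 and 1.55 in GYR_1 to GYR_3, against 0.60, 0.63 and 0.48 in YS_1 to YS_3. The limit of 100 thus marked no step in the data.

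**Figure D2:**
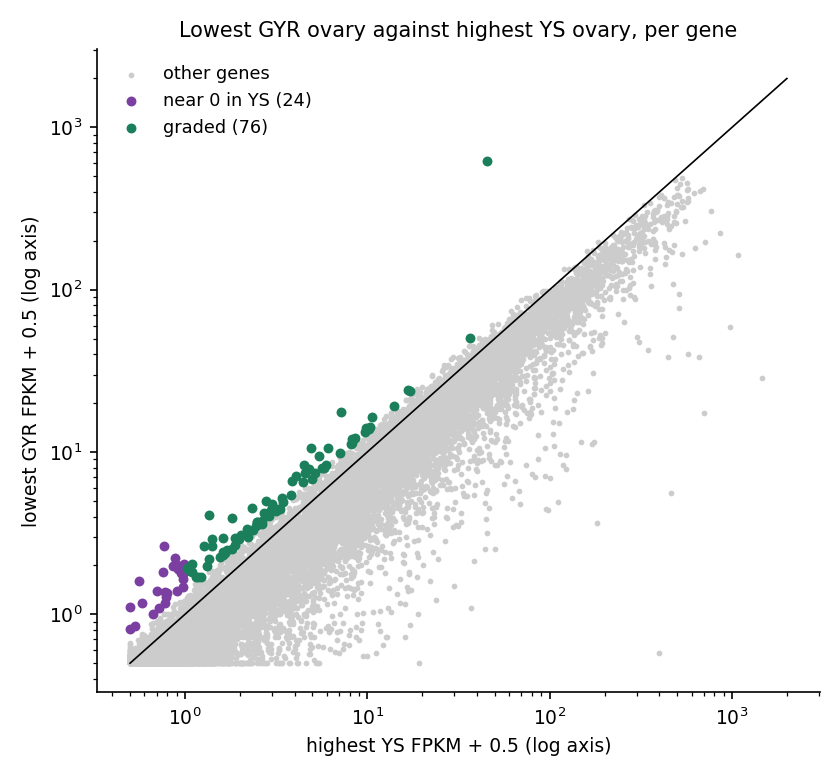
Lowest GYR FPKM plus 0.5 against highest YS FPKM plus 0.5 for each of the 21064 genes, both on log axes, with the 24 members near 0 in YS and the 76 graded members in colour. The line marks equal values. ENSGALG00000011551 lies apart at the top, and the other members form a narrow band above the line.

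Every member has no overlap between the breeds, which is what the rule required. Over the 14918 genes of the fit, every GYR ovary lay above every YS ovary in 8.00%. The fit covered 95 of the 100 members, and the other 5, all near 0 in YS, had a mean FPKM under 0.5. The study called a gene when its log2 fold change exceeded 1 and its p-value, without adjustment, was under 0.05. Here the criteria were taken on limma's log2(FPKM + 1) scale, in place of the count test of the study. By them 51 of the 95 members were higher in GYR, beside 0.865% of the genes of the fit. That share is 129 genes, and the number was 489 without YS_1 and 262 without GYR_2. With a pseudocount of 0.1 it was 278 genes, and 79 members met the criteria. Of the 95 members, 94 were higher in GYR with limma's unadjusted p-value under 0.05, whatever the fold change. This held for 4.27% of the genes of the fit, and genes higher in YS are not in that share. With limma's p-values adjusted by Benjamini-Hochberg over the genes of the fit, 1 member was under 0.05, which was ENSGALG00000011551 at 0.00127. The share of those genes that were under 0.05 and higher in GYR was 0.00670%, and genes higher in YS were not counted. Since the same contrast chose the members, none of these counts is a result about them.

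The 24 members near 0 in YS were weakly expressed in GYR as well. Their mean FPKM in GYR had a median of 1.51 and ran from 0.50 to 5.92, against a median of 0.21 and a range of 0 to 0.35 in YS. All 3 GYR ovaries had an FPKM of at least 1 in 11 of the 24 members. In YS, 2 members were listed at 0 in all 3 ovaries and 8 were listed at 0 in at least 1. In a further 8 members the highest YS value was 0.4 or more and lay close to the limit of 0.5. When the list was drawn without YS_3, it held 37 genes near 0 in the remaining YS ovaries.

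The members listed at 0 in every YS ovary ranked 10th and 39th. The member ranked 10th had an FPKM of 0.84, 0.61 and 0.77 in GYR_1 to GYR_3. The member ranked 39th had 0.31, 0.52 and 0.66 in the same order. A mean of 0 in YS gives no ratio of the means, so no fold change is given for them. Both were low in GYR too, and a value of 0 was not read as absence of the transcript.

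Some members near 0 in YS were even across the GYR ovaries, and in others 1 GYR ovary was far above the rest. Such an ovary raises the mean in GYR but not the ratio, which uses the lowest GYR value. The member ranked 8th had 1.49, 1.53 and 1.68 FPKM in GYR_1 to GYR_3, against 0.36, 0.35 and 0.17 in YS_1 to YS_3. The member ranked 4th had 1.69, 1.51 and 1.10 in GYR_1 to GYR_3, against 0, 0 and 0.06 in YS_1 to YS_3. By contrast, the member ranked 18th had 0.89, 3.07 and 13.8 in GYR_1 to GYR_3, against 0, 0 and 0.20 in YS_1 to YS_3. Its GYR_3 value was 4.49 times that of GYR_2, and its SD in GYR, 6.91, was larger than its mean of 5.92. In the member ranked 5th, GYR_1 was the high ovary, with 6.20, 1.72 and 1.90 in GYR_1 to GYR_3, against 0.20, 0.37 and 0.38 in YS_1 to YS_3.

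The 76 graded members covered a wider range of levels. Their mean FPKM in GYR had a median of 5.62 and ran from 1.41 to 842, against a median of 1.83 and a range of 0.36 to 42.0 in YS. The highest YS value was under 1 in 13 of them, from 1 to under 3 in 32, from 3 to under 10 in 25 and at least 10 in 6. The ratio of the mean in GYR to the mean in YS had a median of 2.64. It was at least 2 in 62 of the 76, its lowest value was 1.52 and its largest after ENSGALG00000011551 was 12.3.

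Among the graded members with the largest ratios, several were nearly constant within a breed. The member ranked 6th had 17.3, 17.7 and 17.2 FPKM in GYR_1 to GYR_3, against 6.69, 4.45 and 5.22 in YS_1 to YS_3. Its GYR values were nearly equal, and its YS values varied more. The member ranked 3rd had 3.67, 3.60 and 5.25 in GYR_1 to GYR_3, against 0.74, 0.73 and 0.85 in YS_1 to YS_3. The member ranked 13th had 2.62, 2.41 and 2.68 in GYR_1 to GYR_3, against 0.55, 0.90 and 0.61 in YS_1 to YS_3. In these 3 members the gap between the breeds was larger than the range within either breed.

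After ENSGALG00000011551, the graded members with the highest means in GYR ranked 90th, 84th and 71st, and their means in GYR were 1.52 to 1.89 times those in YS. The member ranked 90th had 55.2, 49.7 and 55.4 FPKM in GYR_1 to GYR_3, against 36.0, 29.1 and 22.4 in YS_1 to YS_3. The member ranked 71st had 23.5, 24.7 and 23.9 in GYR_1 to GYR_3, against 15.6, 16.2 and 15.7 in YS_1 to YS_3. Its means were 24.0 ± 0.64 in GYR and 15.8 ± 0.33 in YS (SD, n = 3 each), and its log2 fold change was 0.57. The member ranked 84th had 29.7, 23.4 and 27.5 in GYR_1 to GYR_3, against 15.4, 16.6 and 10.7 in YS_1 to YS_3. Only ENSGALG00000011551 among the members had a mean above 100 FPKM in GYR.

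**Figure D3:**
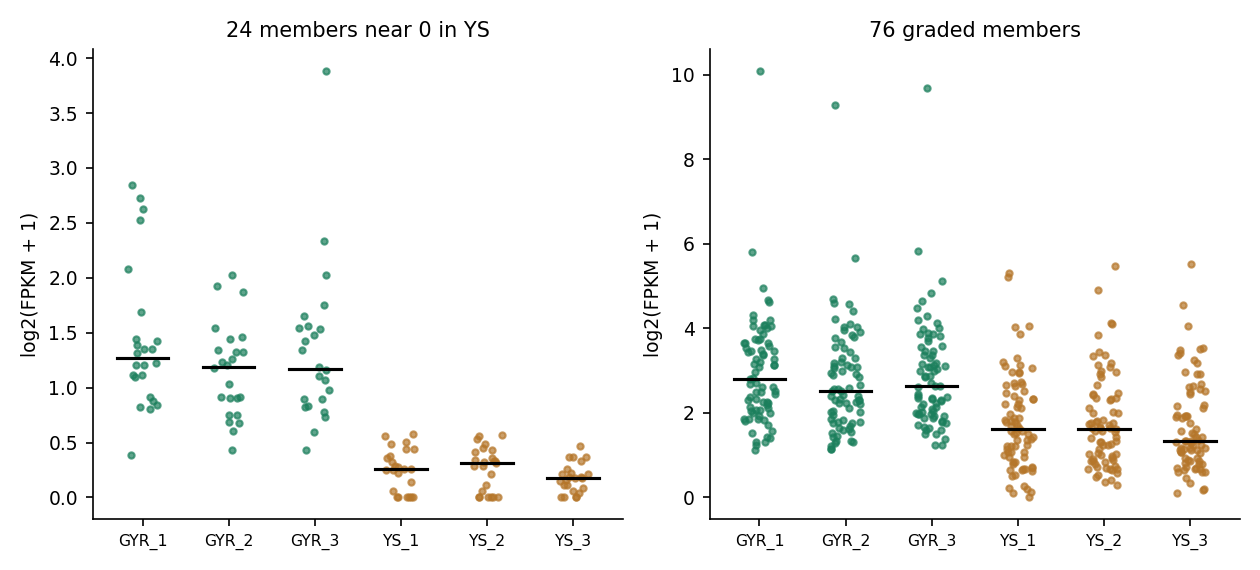
log2(FPKM + 1) of the 24 members near 0 in YS and of the 76 graded members in each of the 3 GYR and 3 YS ovaries. Each point is 1 member and the black line is the median over members. The median FPKM of the graded members is 4.71 to 6.01 in GYR ovaries and 1.53 to 2.09 in YS ovaries, and the isolated points at the top of the GYR columns on the right are ENSGALG00000011551.

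Over all 100 members the median FPKM was 4.52 in GYR_1, 3.47 in GYR_2 and 3.78 in GYR_3, against 1.31 in YS_1, 1.28 in YS_2 and 1.16 in YS_3. These medians lay further apart among the GYR ovaries than among the YS ovaries, and GYR_1 was highest. For comparison, the median over the 14918 genes of the fit was 10.8, 11.5 and 11.5 in GYR_1 to GYR_3, against 10.2, 10.9 and 10.4 in YS_1 to YS_3. The members were thus of lower abundance than most genes of the fit. Their mean over the 6 ovaries was under 3 FPKM in 53 of 100, beside 22.7% of the genes of the fit. The fit left out genes of the lowest abundance and the rule did not, so these shares are not of like sets.

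The order of the ovaries within GYR was not even. GYR_1 was the highest of the 3 GYR ovaries in 46 members, GYR_3 in 32 and GYR_2 in 21. In the genes of the fit GYR_1 was highest in 38.4%, GYR_3 in 31.1% and GYR_2 in 30.2%. GYR_2, the deepest library, was the lowest GYR ovary in 44 members, and in 29.8% of the genes of the fit. GYR_2 therefore set the ratio more often than GYR_1, which was lowest in 24 members, or GYR_3, which was lowest in 31.

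In 16 members the highest GYR ovary was more than 2 times the next. It was GYR_1 in 13 of these and GYR_3 in 3, and GYR_2 in 0. Over the genes of the fit the share was 2.62% for GYR_1, 2.42% for GYR_3 and 0.791% for GYR_2. The most uneven member was graded and ranked 64th, with 1.98, 2.03 and 33.9 FPKM in GYR_1 to GYR_3, against 1.21, 0.82 and 1.06 in YS_1 to YS_3. Its GYR_3 value was 16.7 times that of GYR_2, whereas GYR_1 and GYR_2 lay less than 1 FPKM above the highest YS ovary. The member ranked 11th followed GYR_1 in the same manner, with 11.5, 3.67 and 3.41 in GYR_1 to GYR_3, against 1.31, 0.22 and 0.26 in YS_1 to YS_3, and in it YS_1 was also the highest YS ovary.

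Within YS, single ovaries were low in a set of graded members. YS_1 was more than 2 times lower than the next lowest YS ovary in 8 graded members, YS_3 in 8 and YS_2 in 1. Over the genes of the fit the share was 6.09% for YS_1, 4.12% for YS_3 and 2.30% for YS_2. The member ranked 62nd, an example for YS_1, had 2.63, 2.40 and 2.65 FPKM in GYR_1 to GYR_3, against 0.08, 0.98 and 1.48 in YS_1 to YS_3. The member ranked 37th, an example for YS_3, had 8.21, 7.34 and 7.99 in GYR_1 to GYR_3, against 4.28, 3.90 and 1.16 in YS_1 to YS_3. In both examples the GYR ovaries were close together and the spread lay on the YS side. In the member ranked 14th the spread was larger in GYR, with 7.78, 2.13 and 3.15 in GYR_1 to GYR_3, against 0.20, 0.45 and 0.77 in YS_1 to YS_3. Of the 17 graded members with such a low YS ovary, the spread on the scale of FPKM plus 0.5 was larger in YS in 14, which their low YS ovary favours.

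The spread within a breed was set beside the ratio between breeds. The highest GYR value plus 0.5 over the lowest GYR value plus 0.5 had a median of 1.41 over the members, and also 1.41 over the genes of the fit. In YS the same measure had a median of 1.46 over the members and 1.56 over the genes of the fit. Of the members 88 had a mean under 10 FPKM, and over the genes of the fit under that mean the median was 1.56 in GYR and 1.72 in YS. The medians over the members were thus lower than those over the genes of the fit under 10 FPKM, which the rule favours. They cover all 100 members, those above that mean included, so the sets are not of like abundance. The GYR spread was larger than the ratio between the breeds in 39 members, 9 near 0 in YS and 30 graded. In these the ovaries of GYR differed from each other by more than the nearest ovaries of the breeds did. Over the 21064 genes the ratio was above 1 in 6.88%. In all the others the GYR spread was at least as large as the ratio, since a spread cannot be under 1. The 39 members are therefore no mark of uneven genes.

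The mirrored rule, with the lowest YS value over the highest GYR value, gave a comparison in the other direction. At rank 1 the ratio was 13.8 for GYR above YS and 6.04 for YS above GYR. The order was reversed at rank 2, with 3.44 for GYR above YS against 4.21 for YS above GYR, and at rank 10, with 2.22 against 2.88. Further down the lines crossed several times. At rank 100 the ratios were 1.35 for GYR above YS and 1.36 for YS above GYR, and after rescaling by the median of ratios 1.29 for GYR above YS and 1.45 for YS above GYR, so that their closeness depended on the scaling. Near 0 in the lower breed were 24 of the 100 genes higher in GYR and 6 of the 100 higher in YS, without rescaling. This difference was not tested. Over all genes, those with an FPKM above 0 numbered 18803 to 18921 in GYR ovaries and 18364 to 18572 in YS ovaries. The part of this in the difference was not tested either.

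**Figure D4:**
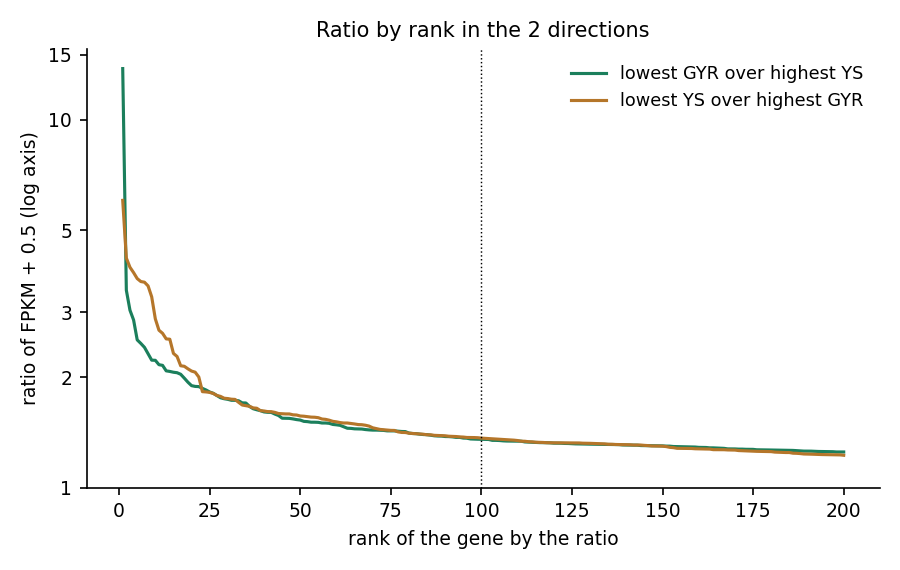
Ratio of the lowest value plus 0.5 in one breed to the highest value plus 0.5 in the other, on a log axis, by rank of the gene. The green line is GYR above YS, the brown line is YS above GYR, and the dotted line marks rank 100. The green line starts at 13.8 and lies under the brown line at rank 10, and at rank 100 the values are 1.35 and 1.36.

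A ratio above 1 was found in 1450 genes for GYR above YS and in 863 genes for YS above GYR. Over the genes of the fit the log2 fold change had a median of 0.10, so the middle gene was shifted slightly upward in GYR. The summed FPKM of the ovaries overlapped between the breeds. After the FPKM were rescaled by the median of ratios, the shift was 0.01 and the numbers were 1011 genes for GYR above YS and 1375 for YS above GYR. The larger number on the GYR side thus depended on the scaling. Of the 100 members, 91 were also among the 100 after rescaling. The median log2 fold change of the 95 members in the fit was 1.03 without rescaling and 0.96 with it. The rule took the largest ratios of GYR over YS, so a median above the shift was built into the choice.

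The choice of members depended more on YS_1 than on any other ovary. Of the 100 genes that the rule chose without it, 22 were among the members, and the ratio at rank 100 was 2.07. With any of the other ovaries left out, 39 to 57 of the 100 genes were among the members and the ratio at rank 100 was 1.53 to 1.79. YS_1 was also the library whose file had none of the entries without an identifier that the other 5 had. YS_1 carries the same number as GYR_1, the highest GYR ovary in 46 members. The ovaries of number 1 deviated from their breed means in the same direction across genes, with a correlation of 0.42. Those of numbers 2 and 3 did so with 0.31 and 0.48. Deviations from a breed mean are tied to each other, so these correlations are not independent. Over the genes of the fit YS_1 was the highest YS ovary in 42.2%, YS_2 in 29.3% and YS_3 in 28.3%. It was more than 2 times the next in 8.53%, beside 1.05% for YS_2 and 2.43% for YS_3. The highest YS value is the one the ratio uses. The part of these shares, of the file and of the shared number in the dependence on YS_1 was not tested.

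ENSGALG00000011551 depended little on any single ovary. Its log2 fold change lay between 4.05 and 4.46 with each ovary left out in turn, and its adjusted p-value from limma was at most 0.0301 in these fits. With no filter on low FPKM the log2 fold change was 4.26 and limma's adjusted p-value was 0.102, in a fit of all 21164 genes. The gene was picked from these same ovaries, so these fits describe it and do not test it.

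The identifiers themselves were the only other feature that could be read. Ensembl numbers its gene identifiers as they are issued, so higher numbers belong to genes annotated later. A number above 45000 was carried by 38 of the 100 members, 13 near 0 in YS and 25 graded. The share was 33.3% over all genes and 18.4% over the genes of the fit. Abundance moved with it, since all 38 of these members had a mean under 10 FPKM. Under that mean such a number was carried by 38 of 88 members, beside 29.0% of the genes of the fit. The fit left out 5 members with a mean under 0.5 FPKM, so these sets are not alike. The part of abundance in this share was not tested.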

How the data were processed

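RNA of 3 GYR and 3 YS ovaries was sequenced. The authors trimmed reads with fastp, aligned them with HISAT2 to a chicken genome named GRCg7b in the paper, and deposited FPKM per gene with 2 decimals. The submitters' processing notes name Bowtie2 2.0.0.5, TopHat2 2.0.0, StringTie 2.2.0 and GRCg6a instead, and their extraction note speaks of retina, whereas all other labels name the ovary. FPKM are not counts, so counting error is unknown.

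Rows without an identifier, 3458 in each library but YS_1 and with equal values in all 5 of these, were left out. Any pair of libraries differed in at least 19071 genes, so none was a copy of another. Each was counted as a separate replicate because the paper describes biological replicates, which this check cannot show. Genes averaging 0.5 FPKM or more were tested on the log2(FPKM + 1) scale with limma 3.58.1 in R 4.3.3 (trend option, no covariate, two-sided, Benjamini-Hochberg adjustment) across all genes at once, in place of the count test of the study, and the procedure was tested on simulated data. Other steps used Python 3.11.15, numpy 2.4.6, pandas 2.3.3 and matplotlib 3.10.9.

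Same-numbered ovaries deviated together from their breed means across genes (correlation 0.42, 0.31 and 0.48 for numbers 1 to 3). Deviations from a breed mean are tied to each other, so these correlations are not independent. The labels give replicate numbers and state no pairing. On these values alone the numbers were treated as pairs in an alternative fit with the replicate block. The values in Results are from the fit without the block. With it, limma's adjusted p-value of ENSGALG00000011551 was 0.0311.

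Members and lists were chosen with earlier results of these data known. Genes to be named had been set as those with an adjusted p-value under 0.05, the largest ratios and members of marker lists. As the identifiers carry no symbols, 2 identifiers are printed, the first graded member and the first near 0 in YS, and no marker list was used. Alternatives were an offset of 0.1 or 1, the most abundant genes kept, rescaling, other limits for near 0, a pseudocount of 0.1, no filter, the replicate block and each ovary left out. The mirrored rule and the identifier numbers were chosen after the data were seen.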

Additional observations from a re-analysis of the deposited data

How the results depend on the processing

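Of the 100 members, 95 were kept with an offset of 1, 100 with the most abundant genes left in and 91 after rescaling, whereas 62 were kept with an offset of 0.1. When single ovaries were left out, 22 to 57 were kept, with the fewest without YS_1. The 24 members near 0 in YS became 5 with a limit of 0.1 and 37 with a limit of 1, the list held 27 to 37 with single ovaries left out, the most without YS_3, and 62 with an offset of 0.1. The number of genes higher in GYR at the criteria of the study was 129. It was 278 with a pseudocount of 0.1 and 82 after rescaling, and with each ovary left out it ran from 139 to 489, with the most without YS_1 and 262 without GYR_2. With the replicate block it was 169, and the block changed no call of the 2 genes named. The members at these criteria, 51, were 79 with a pseudocount of 0.1 and 39 to 57 under the other alternatives. Genes higher in GYR with an adjusted p-value under 0.05 were 1 under every alternative except no filter, where limma gave 0 (86 genes at the criteria of the study). FPKM near 0.5 limit the members near 0 in YS, since their counting error is unknown. With 3 ovaries per breed, the difference of the means of a gene without overlap can still rest largely on 1 ovary of either breed.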
